A study of Mus musculus with 6 samples.

Results

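Fcgr1, Fcgr2b and Fcgr3 encode receptors for the constant part of IgG, Fcer1g and Tyrobp encode signalling adaptors, and Syk encodes the kinase that reads those adaptors. All probe sets whose platform annotation gave 1 symbol and that symbol was one of these 6 genes were taken, which were 11 of 22626 probe sets: 4 for Fcgr2b, 3 for Syk and 1 for each of the other 4 genes. RNA came from mouse LSK cells (negative for lineage markers, positive for Sca-1 and Kit), a bone marrow fraction rich in haematopoietic stem and progenitor cells. It was hybridised to 6 single-colour Affymetrix arrays, 3 labelled Gfi1 knockout and 3 Gfi1 wild type, with the sample numbers 5, 7 and 8 in both groups. Gfi1 encodes a transcriptional repressor of blood cells. The labels give no age, sex, strain or further allele, and they do not say whether a sample was 1 mouse or a pool, so the spread behind each p-value is that between these samples and may be technical.

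The activating IgG receptors work with an adaptor. Fcgr1 (CD64) binds IgG with high affinity and Fcgr3 (CD16) with low affinity, and both lack an activating motif of their own: they depend on the FcR gamma chain, encoded by Fcer1g, for signalling and for their level on the cell surface. Fcer1g and Tyrobp (DAP12) are short transmembrane adaptors whose tails carry an ITAM, a tyrosine motif that Src family kinases phosphorylate and on which the kinase Syk then docks. Fcgr2b (CD32) is the inhibitory IgG receptor, whose tail carries an ITIM that recruits the lipid phosphatase SHIP-1. In blood formation these genes are known mainly from monocytes, macrophages, neutrophils and mast cells, and Fcgr3 and Fcgr2b proteins (CD16/32) are used to sort myeloid progenitors.

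The label of the knockout group could not be checked on the targeted gene. The only Gfi1 probe set had signals of 692, 1163 and 1737 on knockout-labelled arrays 5, 7 and 8, against 632, 608 and 723 on wild-type arrays 5, 7 and 8, which is not lower (difference 0.76 ± 0.28 (SE), limma adjusted p = 0.148). Whether it lies in the deleted part is not given in the labels, so the group is called knockout-labelled here and every direction rests on that label. Kit, by which the cells were sorted, had 3512 to 4669 on knockout-labelled arrays and 5871 to 7774 on wild-type arrays by its brightest probe set. A dimmer Kit probe set had 167 to 264 on knockout-labelled and 282 to 402 on wild-type arrays (-0.57 ± 0.29 (SE), limma adjusted p = 0.299). Of 12 matched stem and progenitor markers all 12 exceeded the control level on every array, and their summed signal was 36233 to 40634 on knockout-labelled and 42433 to 50512 on wild-type arrays. Of these 12, 3 fell in limma (Hlf by 1.26, Flt3 by 1.19 and Kit by 0.71 on the log2 scale, adjusted p = 0.00306, 0.00598 and 0.0407) and 0 rose. Over all genes tested by their brightest probe set 2.41% fell and 1.40% rose. Markers of mature lineages were mixed. Itgam (CD11b) had 14.6 to 134 on knockout-labelled and 92.6 to 165 on wild-type arrays, and Cd4, Cd8b1, Bcl11b and Pax5 did not exceed the control level on any array. Of 13 matched B and plasma cell markers 11 exceeded it on all knockout-labelled and 11 on all wild-type arrays, among them Jchain and Xbp1, and of 11 T cell markers 2 and 5 did so. That level is the brightest of 27 Bacillus control probe sets on each array, 100.2 to 162.

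Signals are the authors' deposited MAS5 values in arbitrary units, already scaled between arrays. Differences are knockout-labelled minus wild type on the log2(signal + 16) scale with the SE of a limma fit over 13575 probe sets, and adjusted p-values are Benjamini-Hochberg values over all of these with a threshold of 0.05. The number of arrays limits the precision. Levels of different probe sets are not compared, because probes bind with different strength. Since RNA was taken from bulk cells, fewer cells of a type and less RNA per cell cannot be told apart.

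By the brightest probe set of each gene, Fcer1g, Fcgr3 and Tyrobp rose, Fcgr1 and Fcgr2b lay above 0 without passing, and Syk lay below 0 without passing. Of the 10 member probe sets tested 4 rose and 0 fell in limma, where 3.60% of all tested probe sets were called, 1.45% higher and 2.15% lower. Before adjustment 4 higher and 1 lower had a p under 0.05, as did 9.27% (higher) and 10.6% (lower) of all tested probe sets. On 4 of all 11 probe sets every knockout-labelled array lay above every wild-type array, and on 1 every one lay below, where 12.0% and 12.2% of all tested probe sets did so. The median difference was 0.72 over the 11 probe sets and -0.01 over all tested. Fcer1g passed the filter on dim probe sets (a mean over 6 arrays of at least 210) only through its knockout-labelled arrays, so these counts include a probe set that had to differ.

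**Figure D1:**
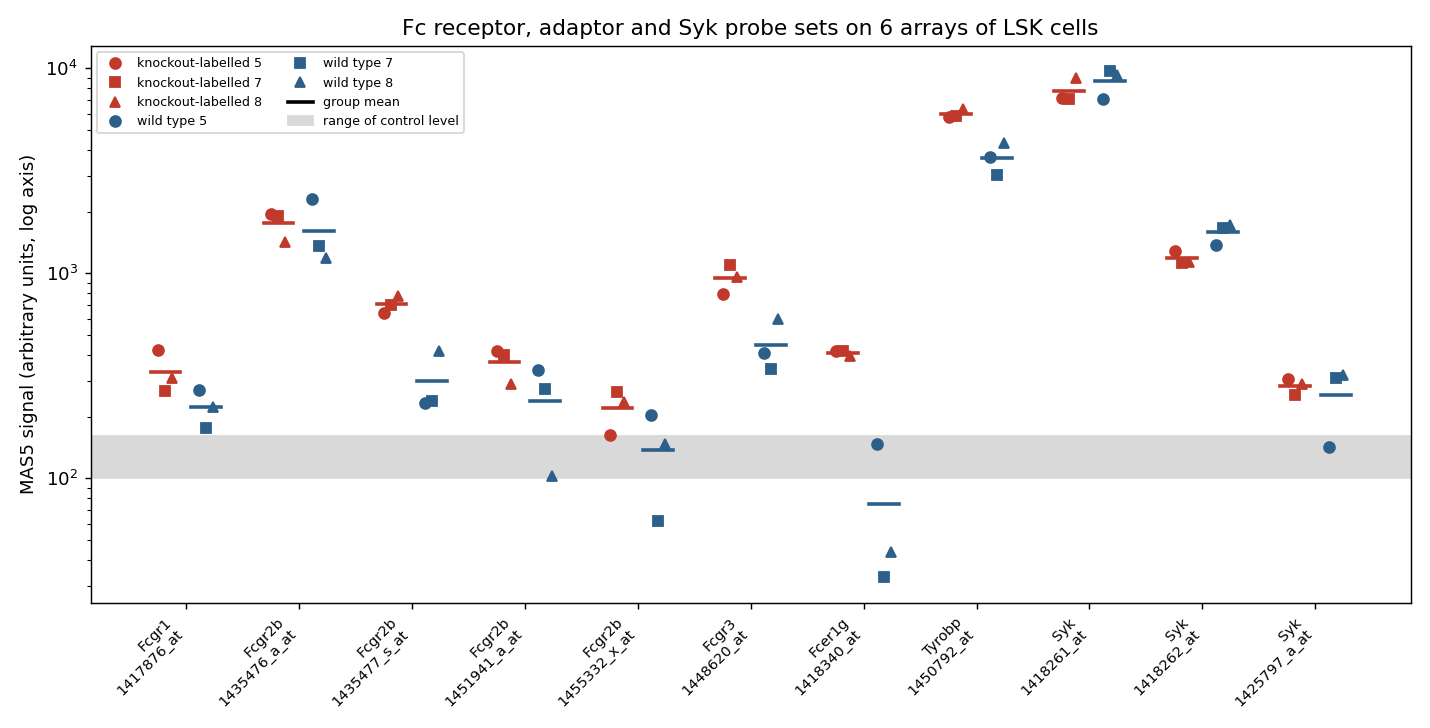
Signal of each of the 11 probe sets (log axis, arbitrary units) on the 3 knockout-labelled arrays (red) and the 3 wild-type arrays (blue), with group means as bars and the range of the control level (100.2 to 162) in grey. The groups are apart for Fcgr2b 1435477_s_at, Fcgr3, Fcer1g, Tyrobp and Syk 1418262_at, and the wild-type Fcer1g signals lie in or under the grey band.

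Fcer1g, the FcR gamma chain, had the largest difference of the members. Probe set 1418340_at read 420, 417 and 393 on knockout-labelled arrays 5, 7 and 8, and 147, 32.9 and 43.8 on wild-type arrays 5, 7 and 8. The knockout-labelled values lay close together, with a highest over lowest of 1.07, and none of the 3 wild-type values exceeded its array's control level, so their own spread was not measured. The wild-type group therefore has only a bound, and Fcer1g was at least 3.09-fold higher on the knockout-labelled arrays (measured means of 410 ± 14.7 there and 74.6 ± 63.0 on wild-type arrays, SD, n = 3 each). Because Fcer1g entered the filtered fit only through the knockout-labelled arrays, the fit over all 22626 probe sets bears most on it, and its limma adjusted p there was 0.0421. The filtered fit gave 0.00986, and the fitted difference of 2.45 is no measured size, since one side of it is dim. In the filtered fit the call was lost without knockout-labelled array 8 (adjusted p = 0.0568) and held with any other 1 array left out. These fits share that filter, and the fit over all probe sets was not repeated with arrays left out.

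Tyrobp, the adaptor DAP12, was bright on every array. Its probe set 1450792_at read 5781, 5864 and 6324 on knockout-labelled arrays 5, 7 and 8 and 3680, 3005 and 4320 on wild-type arrays 5, 7 and 8. All knockout-labelled values were higher than all wild-type values, and the knockout-labelled ones were again the tighter group. Tyrobp rose by 0.72 ± 0.17 (SE), with group means of 5990 ± 293 on knockout-labelled and 3669 ± 658 on wild-type arrays (SD, n = 3 each) and a limma adjusted p of 0.0348. This call is the least secure of the 4: the adjusted p was 0.0732, 0.0954 and 0.150 without knockout-labelled array 5, 7 and 8 and 0.0604 and 0.143 without wild-type array 5 and 7, and it was 0.0680 with no filter on dim probe sets, 0.0545 with median centring and 0.109 with eBayes without trend, with differences of 0.58 to 0.84 over all alternatives.

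The difference between the adaptors was itself compared. The log2 ratio of Fcer1g to Tyrobp was -3.73, -3.76 and -3.95 on knockout-labelled arrays and -4.50, -5.95 and -6.18 on wild-type arrays, numbered 5, 7 and 8 in both. Because wild-type Fcer1g was not above the control level, these wild-type ratios are not firm values. With Fcer1g set to the control level on those arrays they were -4.38, -4.62 and -5.17, still below all knockout-labelled ratios, and the ratio was then at least 0.91 higher on the knockout-labelled arrays on the log2 scale (exact two-sided permutation test, p = 0.1, the smallest that 3 against 3 arrays can give). The design cannot pass 0.05 in this test, so a larger change of Fcer1g than of Tyrobp is described and not shown by a test.

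The activating low-affinity receptor rose with its adaptor chain. Fcgr3 (1448620_at) had 793, 1103 and 962 on knockout-labelled arrays 5, 7 and 8, and 406, 341 and 599 on wild-type arrays 5, 7 and 8. Every knockout-labelled array exceeded every wild-type array, the nearest pair being knockout-labelled 5 and wild type 8. The means were 953 ± 155 on knockout-labelled and 449 ± 134 on wild-type arrays (SD, n = 3 each), a rise of 1.09 ± 0.24 (SE) with a limma adjusted p of 0.0280. The call was lost without knockout-labelled array 7 or 8 (0.112 and 0.114), without wild-type array 5 or 7 (0.0608 and 0.122), with no filter on dim probe sets (0.0761) and with eBayes without trend (0.0625), at differences of 0.91 to 1.31 over all alternatives.

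Fcgr1, the high-affinity receptor, did not pass. Its probe set 1417876_at had 421, 265 and 308 on knockout-labelled arrays 5, 7 and 8 and 271, 176 and 223 on wild-type arrays 5, 7 and 8. The groups overlapped, since knockout-labelled array 7 lay below wild-type array 5. The difference was 0.53 ± 0.29 (SE) with a 95% interval of -0.10 to 1.17 (limma adjusted p = 0.347), so neither no change nor a change of the size seen for Fcgr3 lies outside it. On both groups array 5 was the highest and array 7 the lowest.

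The inhibitory receptor Fcgr2b gave different answers on its 4 probe sets. The brightest, 1435476_a_at, had 1943, 1901 and 1419 on knockout-labelled arrays 5, 7 and 8 and 2301, 1365 and 1184 on wild-type arrays 5, 7 and 8. The highest value was on a wild-type array and the groups overlapped (0.16 ± 0.24 (SE), 95% interval -0.36 to 0.69, limma adjusted p = 0.775). Without wild-type array 5 its difference was 0.45 and without wild-type array 8 it was -0.029, so its sign rests on single arrays.

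Probe set 1435477_s_at, annotated to the same source sequence, did part the groups. It read 640, 702 and 774 on knockout-labelled arrays 5, 7 and 8 and 234, 239 and 419 on wild-type arrays 5, 7 and 8. It rose by 1.25 ± 0.26 (SE) with a limma adjusted p of 0.0207, which became 0.0729 and 0.105 without knockout-labelled array 7 and 8, 0.0509 and 0.0892 without wild-type array 5 and 7, and 0.0680 with no filter on dim probe sets. In Affymetrix naming an _s_at probe set may bind transcripts of more than 1 gene and an _a_at probe set binds several transcripts of 1 gene. The coding sequences for the extracellular parts of mouse Fcgr2b and Fcgr3 are closely alike, so which gene the _s_at signal comes from is uncertain, and this was not tested.

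The remaining Fcgr2b probe sets were dimmer. Probe set 1451941_a_at had 420, 400 and 288 on knockout-labelled arrays and 339, 273 and 103 on wild-type arrays (0.72 ± 0.38 (SE), limma adjusted p = 0.317), and 1455332_x_at had 163, 265 and 236 on knockout-labelled arrays and 204, 62.2 and 147 on wild-type arrays. Both overlapped between groups. The second was below the brightness filter, and in a fit over all 22626 probe sets its difference was 0.73 ± 0.43 (SE) with a limma adjusted p of 0.506. Averaged over its 4 probe sets, Fcgr2b stood at 0.72 ± 0.24 (SE; limma adjusted p = 0.125), against 0.16 for the brightest alone.

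The balance of activating to inhibitory receptor was compared on the brightest probe sets. The result depends on that choice: this Fcgr2b probe set differed by 0.16, but 1435477_s_at by 1.25, more than Fcgr3 (1.09). The ratio of Fcgr3 to the other Fcgr2b probe sets was not tested. The log2 ratio of Fcgr3 to Fcgr2b was -1.28, -0.78 and -0.55 on knockout-labelled arrays 5, 7 and 8 and -2.46, -1.95 and -0.97 on wild-type arrays 5, 7 and 8. The ranges overlapped, with wild-type array 8 above knockout-labelled array 5. The mean difference was 0.92 (exact two-sided permutation test, p = 0.2, where 0.1 is the smallest possible). Within same-numbered arrays the ratio was higher on the knockout-labelled array in all 3 pairs, by 1.18, 1.17 and 0.41 (exact paired permutation test, p = 0.25, the smallest that 3 pairs can give). Neither test can reach 0.05 here. The ratio of Fcgr2b 1435477_s_at to 1435476_a_at, chosen after its values were seen, differed by 1.09 in the same way (exact p = 0.2).

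Syk, the kinase downstream of both adaptors, was bright and differed little. Its brightest probe set, 1418261_at, had 7203, 7056 and 8937 on knockout-labelled arrays 5, 7 and 8, and 7124, 9677 and 9293 on wild-type arrays 5, 7 and 8. The groups overlapped (-0.17 ± 0.17 (SE), 95% interval -0.52 to 0.19, limma adjusted p = 0.647). That interval leaves out a rise of the size measured for Tyrobp.

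The second Syk probe set, 1418262_at, lay lower on all knockout-labelled arrays. It had 1283, 1128 and 1133 there and 1379, 1655 and 1719 on wild-type arrays, in the order 5, 7 and 8. The difference of -0.41 ± 0.18 (SE) did not pass after adjustment (limma adjusted p = 0.227, unadjusted p = 0.0404). The third, 1425797_a_at, had 305, 255 and 290 on knockout-labelled arrays and 142, 307 and 319 on wild-type arrays (0.21 ± 0.33 (SE), adjusted p = 0.785), and without wild-type array 5 its difference was -0.14. None of the 3 Syk probe sets passed under any alternative run.

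**Figure D2:**
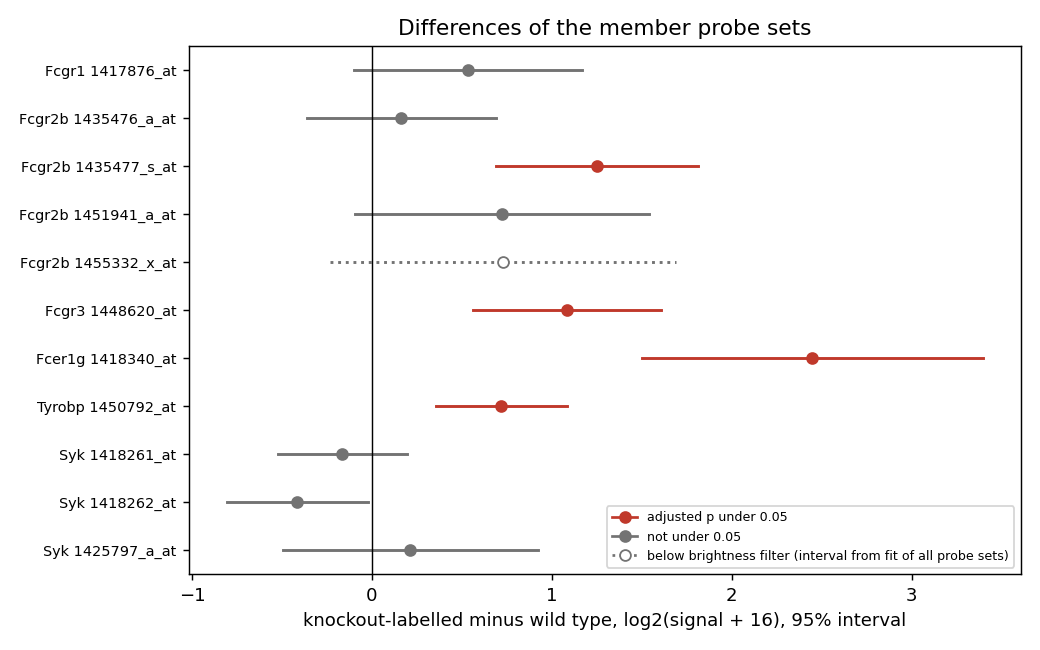
Difference of each probe set, knockout-labelled minus wild type on the log2(signal + 16) scale, with 95% intervals that are not adjusted for the number of probe sets. The 4 red probe sets passed an adjusted p of 0.05, led by Fcer1g at a fitted 2.45 (its wild-type signals are not above the control level), and the open point (Fcgr2b 1455332_x_at) takes its interval from the fit over all probe sets.

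**Figure D3:**
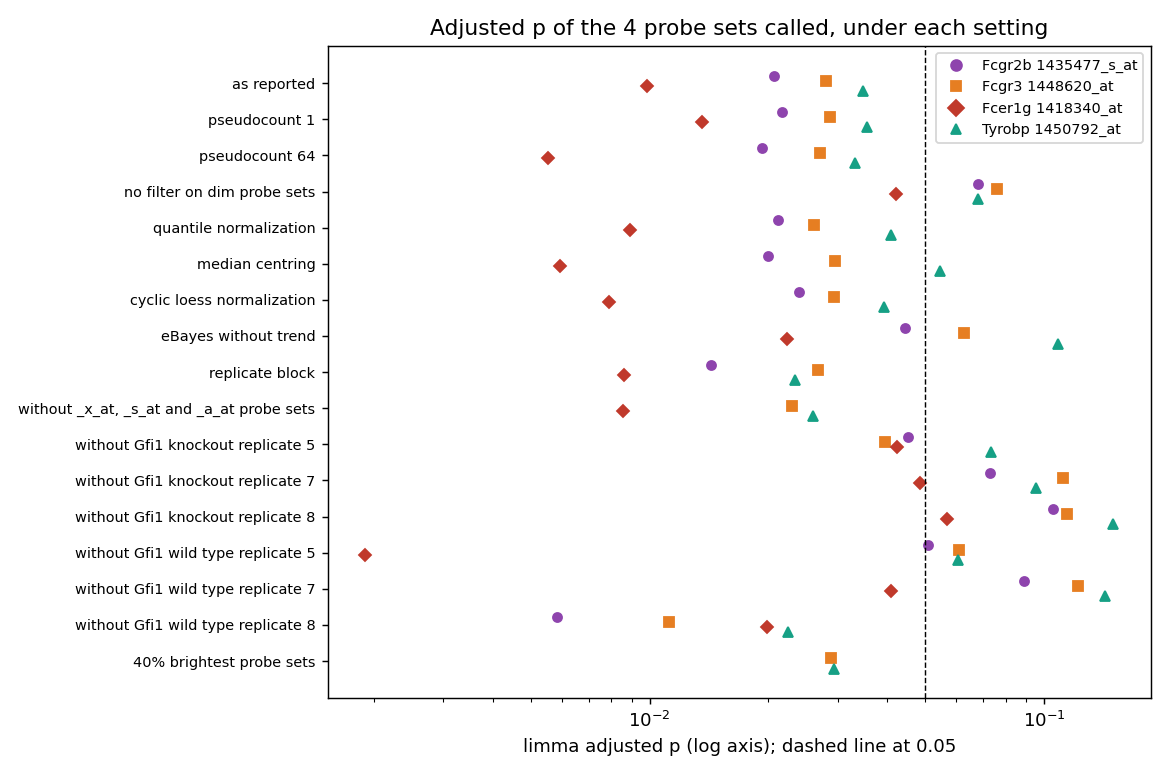
Limma adjusted p (log axis) of the 4 probe sets that rose, under the reported fit and each alternative, with the threshold of 0.05 dashed. Fcer1g stays left of the line in all but the fit without knockout-labelled array 8, while Tyrobp crosses it in 8 fits and Fcgr3 in 6.

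Some monocyte and macrophage markers also differed between the groups. Of 22 matched monocyte and macrophage markers, none of them a member, 18 were tested. Of these 4 rose and 0 fell (Ccr2, Ms4a6c, Ccl6 and Csf1r), beside 1.40% and 2.41% of all genes tested by brightest probe set. Before adjustment 7 higher and 1 lower (Cd163, at -0.80) had a limma p under 0.05, beside 9.59% and 11.3% of all genes tested. Of the 18, 17 lay above 0, and their median difference was 0.50. Ccl6 (means of 385 on knockout-labelled and 140 on wild-type arrays) passed the brightness filter only through the knockout-labelled arrays. The summed signal of the 22 markers was 55131, 54671 and 53454 on knockout-labelled arrays 5, 7 and 8 and 32914, 30917 and 45064 on wild-type arrays 5, 7 and 8. Among wild-type arrays the sum ran in the order 8, 5 and 7, as did Fcgr3 and Tyrobp, whereas Fcgr1 and Fcgr2b 1435476_a_at were highest on array 5. The sum holds bright genes that were not called, such as Vcam1 (1324, 3555 and 8160 on wild-type arrays 5, 7 and 8). None of the 4 markers that rose had the order of the sum. On wild-type arrays Ccr2 and Ms4a6c were highest on 5 and lowest on 8, Csf1r was highest on 7, and Ccl6 was lowest on 5. Fcer1g has no measured order there, since its wild-type signals did not exceed the control level. Among knockout-labelled arrays the sum was highest on array 5 and lowest on 8, while Tyrobp was highest on 8 and lowest on 5 and Fcgr3 was lowest on 5. Marco did not exceed the control level on any array, and 19 of the 22 markers exceeded it on all knockout-labelled and 15 on all wild-type arrays. The part of such cells, or of these genes' own level per cell, in the results was not tested.

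Markers of neutrophils moved the other way. Of 11 tested 4 fell (Ngp, Camp, Ltf and S100a9) and 1 rose (Mmp8), with a median of -1.08. Camp (means of 148 on knockout-labelled and 2227 on wild-type arrays) passed the brightness filter only through the wild-type arrays, and the summed signal of 14 matched markers was 9555 to 19004 on knockout-labelled and 23662 to 46546 on wild-type arrays. For mast cells and basophils, which also use Fcer1g, 1 of 5 tested markers rose (Hdc) and 0 fell, the sum of 11 markers was 15988 to 20773 on knockout-labelled and 16174 to 20201 on wild-type arrays, and 6 of the 11 exceeded the control level on all knockout-labelled and on all wild-type arrays. Of its proteases Cpa3, Mcpt8 and Tpsab1 did so on every array, Mcpt2, Cma1 and Tpsb2 on some, and Mcpt1 and Mcpt4 on none. For NK cells 1 of 6 fell (Klrd1) and 0 rose, with sums of 3713 to 4417 on knockout-labelled and 3681 to 4334 on wild-type arrays. For dendritic cells 1 of 9 fell (Flt3) and 0 rose, with sums of 7734 to 10030 on knockout-labelled and 12509 to 14419 on wild-type arrays, and for erythroid cells 1 of 8 fell (Car2) and 0 rose, with sums of 12380 to 12734 on knockout-labelled and 21486 to 28869 on wild-type arrays. These sums include large single-gene differences. Flt3, also counted among the stem and progenitor markers, had means of 2299 on knockout-labelled and 5316 on wild-type arrays. Car2 had means of 4224 on knockout-labelled and 14028 on wild-type arrays. Among tested markers of eosinophils (3), B and plasma cells (9), T cells (4) and megakaryocytes (7), 0 passed in limma, with 1, 3, 3 and 1 at an unadjusted p under 0.05. In the same order 1, 1, 1 and 1 of these were higher and 0, 2, 2 and 0 lower. Over all genes tested by their brightest probe set, 1.40% rose and 2.41% fell. Before adjustment 9.59% (higher) and 11.3% (lower) of them had a p under 0.05.

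The receptors that hand their signal to Fcer1g, Tyrobp or Syk were the pathway list with the calls. Of 14 tested genes 4 rose and 1 fell, where 1.40% of all genes tested by their brightest probe set rose and 2.41% fell, and 11 lay above 0 with a median of 0.24. The list was drawn up with earlier results of these data known, so these counts are a description only. Clec4e (Mincle) and Clec4d (MCL) are C-type lectin receptors of myeloid cells that use Fcer1g, Clec7a (Dectin-1) is a receptor for fungal beta-glucan that signals to Syk through a motif in its own tail, and Trem3 is a mouse receptor that pairs with Tyrobp. The gene that fell, Klrd1, encodes CD94, a partner chain of receptors of NK cells and some T cells.

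Clec7a had 1725, 2247 and 1725 on knockout-labelled arrays 5, 7 and 8 and 751, 713 and 836 on wild-type arrays 5, 7 and 8, a rise of 1.28 ± 0.19 (SE; limma adjusted p = 0.00306). Clec4d had 1288, 1428 and 1367 on knockout-labelled arrays, against 602, 699 and 515 on wild-type arrays, a rise of 1.16 ± 0.19 (adjusted p = 0.00668). These calls held with any 1 array left out (adjusted p up to 0.0209 and 0.0437), which was true of none of the 4 member probe sets that rose. The _s_at suffix of the Clec4d probe set means that it may bind related transcripts.

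Trem3 had 1781, 2305 and 2231 on knockout-labelled arrays and 1034, 815 and 1021 on wild-type arrays, a rise of 1.12 ± 0.19 (SE; limma adjusted p = 0.00726, and 0.0535 without knockout-labelled array 8). Clec4e had 2289, 2526 and 2944 on knockout-labelled arrays and 1441, 1217 and 705 on wild-type arrays, a rise of 1.25 ± 0.24 (SE; adjusted p = 0.0154, lost without knockout-labelled array 7 or 8 at 0.0516 and 0.0950 and with no filter at 0.0506). Its dimmer probe set 1420331_at rose as well, and it was the only call among 32 tested dimmer probe sets of the pathway genes. Klrd1 had 214, 218 and 233 on knockout-labelled arrays and 534, 1103 and 395 on wild-type arrays, a fall with a difference of -1.41 ± 0.33 (SE; adjusted p = 0.0332). Its call held only without wild-type array 8 (0.0125), and without knockout-labelled array 5, 7 and 8 and wild-type array 5 and 7 the adjusted p was 0.0765, 0.0885, 0.109, 0.0502 and 0.161.

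Clec5a (MDL-1), which pairs with Tyrobp, had 229, 514 and 417 on knockout-labelled arrays and 139, 134 and 167 on wild-type arrays. The groups were apart, and its difference of 1.24 ± 0.34 (SE) had a limma adjusted p of 0.0618, or 0.0433 when the fit was blocked on sample number. The leukocyte integrin chain Itgb2 had 3147 ± 267 on knockout-labelled and 2971 ± 234 on wild-type arrays (SD, n = 3 each; 0.08 ± 0.16 (SE), adjusted p = 0.844).

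**Figure D4:**
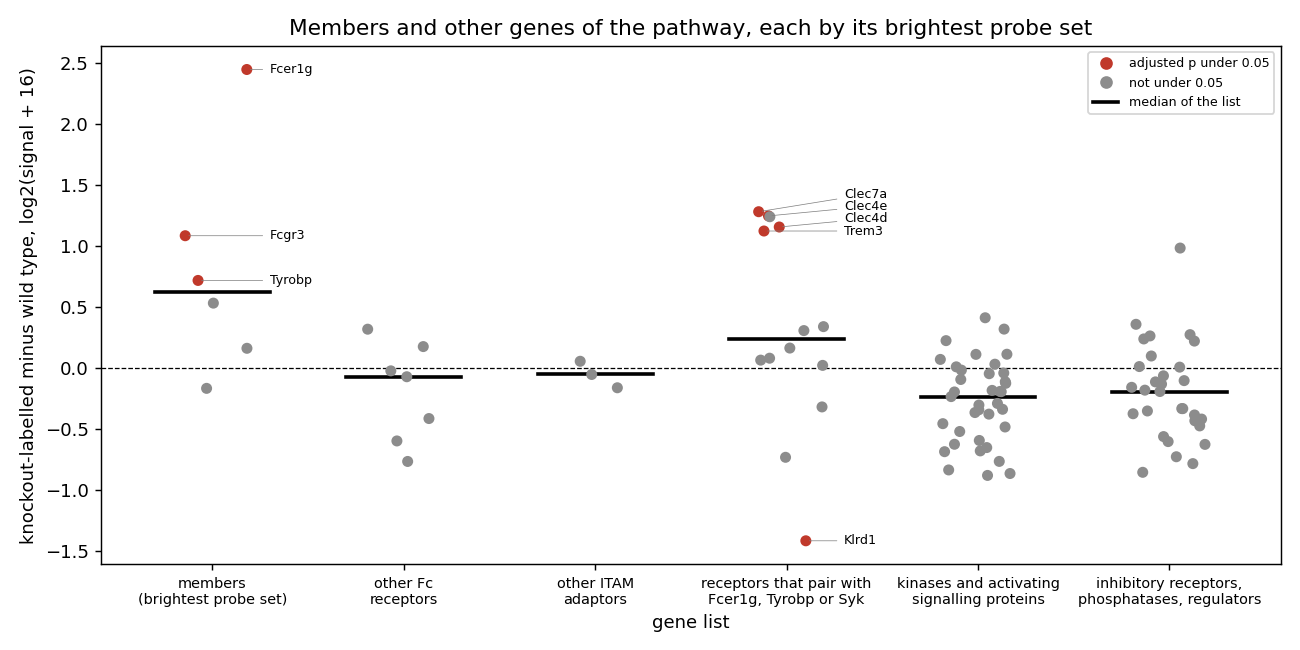
Difference of each tested gene by its brightest probe set (knockout-labelled minus wild type, log2(signal + 16)), for the 6 members and 5 lists of other pathway genes, with the median of each list as a bar. Named red points passed an adjusted p of 0.05; they sit among the members and the receptors that pair with Fcer1g, Tyrobp or Syk, and no point of the other lists is red.

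Other Fc receptors and adaptors did not pass. Of 7 tested Fc receptor genes 0 were called in limma, with a median of -0.07, and before adjustment 1 had a p under 0.05, a lower one. Of all genes tested 11.3% had such a p in that direction. Fcgr4, a further activating IgG receptor that uses Fcer1g, had 632, 480 and 289 on knockout-labelled arrays and 398, 432 and 256 on wild-type arrays (0.32 ± 0.31 (SE), adjusted p = 0.627). Fcgrt, the neonatal receptor that recycles IgG, stood at -0.02 ± 0.23 (SE; adjusted p = 0.975).

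The IgE receptor uses Fcer1g as well. Fcer1a, its alpha chain, had 199, 159 and 217 on knockout-labelled arrays and 52.6, 90.7 and 254 on wild-type arrays, overlapped and lay below the brightness filter. Ms4a2, its beta chain, stood at -0.07 ± 0.31 (SE; limma adjusted p = 0.937). Of the 3 tested further ITAM and related adaptors 0 passed, and 0 had an unadjusted p under 0.05. Hcst (DAP10), the gene next to Tyrobp on chromosome 7, had 799, 582 and 568 on knockout-labelled arrays and 692, 584 and 580 on wild-type arrays (0.06 ± 0.22 (SE), adjusted p = 0.925).

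No tested gene of the steps after the adaptors passed. Of 37 tested genes for kinases and activating signalling proteins 0 were called in limma, 8 lay above 0 and the median was -0.23. Before adjustment 12 had a p under 0.05, all lower, as did 9.59% (higher) and 11.3% (lower) of all genes tested. Btk and Plcg2, the kinase and the phospholipase that act beside Syk, stood at -0.04 ± 0.18 and -0.18 ± 0.14 (SE; adjusted p = 0.928 and 0.530), Vav1, a guanine nucleotide exchange factor, at -0.02 ± 0.20 (0.982) and the Src family kinase Fgr at 0.07 ± 0.26 (0.920). By its brightest probe set the scaffold Lcp2 (SLP-76) had 259, 378 and 505 on knockout-labelled arrays and 581, 600 and 852 on wild-type arrays. The difference was -0.83 ± 0.27 (SE; adjusted p = 0.109, and 0.0475 when blocked on sample number). A dimmer tested Lcp2 probe set had 152, 355 and 222 on knockout-labelled arrays and 232, 305 and 211 on wild-type arrays. There the groups overlapped, with a difference of -0.09 ± 0.34 (SE; limma adjusted p = 0.918). Blnk, a relative of Lcp2, stood at -0.86 ± 0.33 (adjusted p = 0.167, blocked 0.0480), and Lat2 was below the brightness filter. Yes1, chosen after its values were seen, was below that filter too and was not tested. It had 91.9, 66.8 and 17.9 on knockout-labelled arrays, none above the control level, and 205, 169 and 240 on wild-type arrays. By that bound Yes1 was at least 1.45-fold lower on the knockout-labelled arrays.

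Among inhibitory receptors, phosphatases and negative regulators no gene passed. Of 31 tested 0 were called in limma, before adjustment 1 higher and 8 lower ones had a p under 0.05 (beside the same 9.59% and 11.3%), 9 lay above 0 and the median was -0.19. Inpp5d, the phosphatase SHIP-1 that Fcgr2b recruits, had means of 3499 ± 250 on knockout-labelled and 3786 ± 325 on wild-type arrays (SD, n = 3 each; -0.11 ± 0.16 (SE), adjusted p = 0.761). Ptpn6, the phosphatase SHP-1, had 4864 ± 584 on knockout-labelled and 5204 ± 386 on wild-type arrays (-0.10 ± 0.16 (SE), adjusted p = 0.788), and the inhibitory receptor Pirb lay below the brightness filter.

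When the fit was blocked on sample number, calls over all 92 tested pathway genes came to 6 higher and 5 lower, against 4 and 1 without it. The genes added were Clec5a and Siglecf (0.98, blocked adjusted p = 0.0490) above 0 and Lcp2, Blnk, Ptprc (-0.47, blocked 0.0410) and Sla (-0.85, blocked 0.0471) below 0, and Siglecf, Ptprc and Sla were chosen after their values were seen. Clec5a (wild-type mean 147) and Siglecf (wild-type mean 195) passed the brightness filter only through the knockout-labelled arrays. In limma the 4 member probe sets passed with and without the block.

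Fcgr2b, Fcgr3 and Fcer1g lie close together on mouse chromosome 1. In the order of the RefSeq annotation Fcgr2b comes first, then Fcgr4 and Fcgr3, and Fcer1g follows after further genes, with 9 genes between Fcgr2b and Fcer1g. Over the 21 protein-coding genes from 5 before Fcgr2b to 5 after Fcer1g, 15 had a probe set with 1 symbol and 10 of these were tested. Fcgr3 and Fcer1g rose, and 0 of the other 8 passed by their brightest probe set. Sdhc, a subunit of respiratory complex II that lies between them, had a difference of 0.37 ± 0.18 (SE; limma adjusted p = 0.271) and Tomm40l, next to Apoa2 on the way to Fcer1g, 0.24 ± 0.21 (adjusted p = 0.586).

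**Figure D5:**
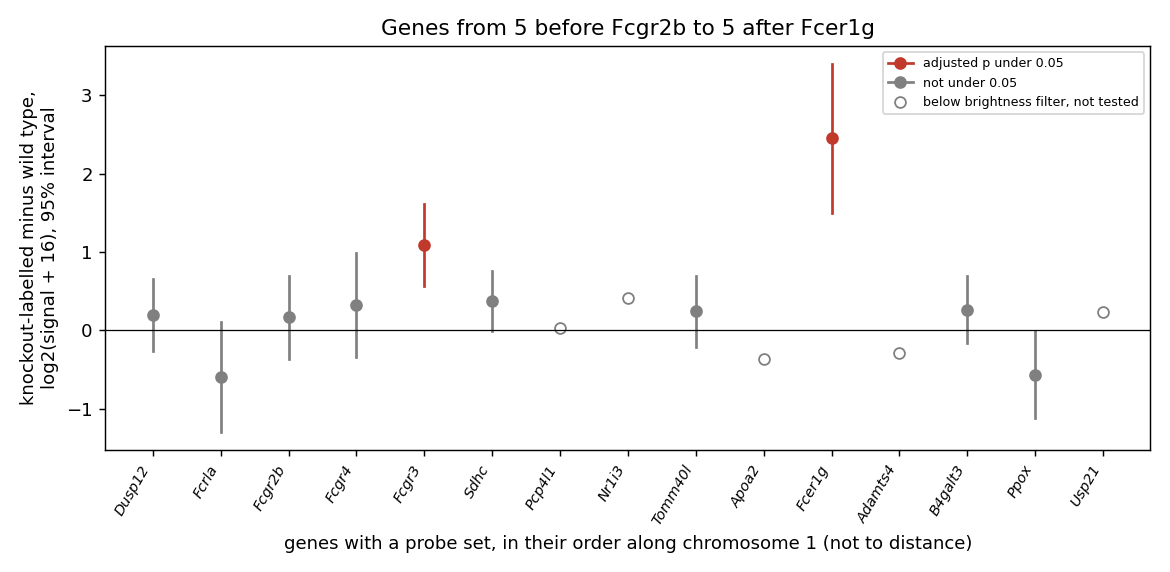
Difference by gene (knockout-labelled minus wild type, log2(signal + 16), brightest probe set) for genes with a probe set in their order along chromosome 1, with unadjusted 95% intervals where tested and open points where below the brightness filter. Fcgr3 at 1.09 and Fcer1g at a fitted 2.45 are the red points, and no other gene shown passed.

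The promoters of the 3 chromosome 1 members are shown because the genes lie near each other and differed in their readout. They are the RefSeq (GRCm38.p6) sequences from 250 bases before to 50 after the annotated start, on the minus strand, at chr1:171234300-171234599 for Fcer1g, chr1:171059354-171059653 for the first of 2 Fcgr3 starts and chr1:170976022-170976321 for Fcgr2b. Capitals mark GAGGAA, the core of the PU.1 box, and AATC, the core that Gfi1 binds, on either strand (also read as TTCCTC and GATT).
Fcer1g: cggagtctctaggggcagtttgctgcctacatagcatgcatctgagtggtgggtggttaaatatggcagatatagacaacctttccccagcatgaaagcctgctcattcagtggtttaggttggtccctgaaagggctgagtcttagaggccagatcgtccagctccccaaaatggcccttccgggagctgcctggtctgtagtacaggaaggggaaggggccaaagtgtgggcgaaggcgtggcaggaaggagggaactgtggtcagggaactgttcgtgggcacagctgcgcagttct
Fcgr3: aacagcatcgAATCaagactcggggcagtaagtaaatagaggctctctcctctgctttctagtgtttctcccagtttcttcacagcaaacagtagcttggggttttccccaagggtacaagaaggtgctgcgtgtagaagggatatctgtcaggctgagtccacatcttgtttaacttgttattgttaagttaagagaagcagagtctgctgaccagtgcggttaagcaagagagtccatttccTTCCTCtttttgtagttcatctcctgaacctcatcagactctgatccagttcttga
Fcgr2b: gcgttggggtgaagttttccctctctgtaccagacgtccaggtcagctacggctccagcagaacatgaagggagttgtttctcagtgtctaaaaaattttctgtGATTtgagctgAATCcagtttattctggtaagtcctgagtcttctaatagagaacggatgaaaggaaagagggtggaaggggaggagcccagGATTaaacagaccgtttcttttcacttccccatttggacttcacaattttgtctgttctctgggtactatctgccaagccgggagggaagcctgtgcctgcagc

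The Fcer1g window held neither motif. The Fcgr3 window held 1 GAGGAA beginning 6 bases before the start and 1 AATC beginning 240 bases before it, and the Fcgr2b window held 3 AATC and no GAGGAA. Among 32851 promoter windows of the same length 28.3% held GAGGAA and 73.1% AATC, so a match to either is common. The longer AAATCNC was found in Fcgr2b and in 11.7% of all windows, and TTGCNNAA, a C/EBP-like motif, in Fcgr3 and in 10.8%.

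The GAGGAA match of Fcgr3 lay in a run that Fcgr1 shares. The longest run that the Fcgr3 and Fcgr1 windows have in common on the gene's own strand was ttccTTCCTCtttt, 14 bases, which 5 of the 32851 windows held on either strand, and in Fcgr1 the TTCCTC began 55 bases before the start. Those 5 include the Fcgr1 window and the windows of the 2 Fcgr3 starts, and the run was picked because it is shared. Longest shared runs among the other pairs of the 5 members with a window were 7 to 9 bases. Of these genes Fcgr3 passed and Fcgr1 did not, and a match is a description of letters only. Syk had 2 annotated starts, of which 1 window held GAGGAA.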

How the data were processed

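LSK RNA from 6 samples was measured. Per the labels' protocols, sorted cells gave 10 ng of RNA per sample, which went through 2 amplification rounds before labelling. The authors deposited 1 linear intensity per probe set and array, made with MAS5 per the submitters' processing notes; its version was not given in the sources used here. Ratios of 3' to 5' signal were 4.30 to 6.11 for Gapdh and 1.15 to 1.47 for actin, with the groups overlapping for both.

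Of 22690 probe sets 64 AFFX controls were left out. Of the rest 20380 had 1 symbol, 691 several and 1555 none. log2(signal + 16) was taken with no further normalization, and the brightest 60% by mean signal were tested (lmFit and eBayes with trend, two-sided; limma 3.58.1, R 4.3.3), after a test on simulated data. Array medians were 286 to 335, and 67.0% to 74.4% of probe sets exceeded the control level. Alternatives were other pseudocounts, filters, normalizations and variance priors, a block, probe set choice and each array left out.

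The members and lists were chosen with earlier results of these data known. Of 311 listed symbols 250 matched a probe set. Genes were represented by the brightest probe set. Named were all member probe sets, up to 5 called genes per pathway list and 3 per marker list, a list of pathway genes of known role, and the 3 nearest patterns per member; neutrophil and monocyte calls beyond 3 are named only to complete a count.

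As a pairing check, each array was set as its deviation from its group mean. Same-numbered arrays of the 2 groups (5, 7 and 8) then had correlations of 0.148, 0.161 and 0.239, and differently numbered ones -0.130 to -0.0239. Taking deviations from the group mean forces values of both signs, so the negative ones are no separate evidence of pairing. The labels give the shared numbers but not what they mark, so the pairing rests on the same-numbered correlations.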

Additional observations from a re-analysis of the deposited data

How the results depend on the processing

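With no filter on dim probe sets, with the 40% brightest probe sets and with eBayes without trend, the member probe sets called higher numbered 1, 2 and 2 in place of 4, and the pathway genes called lower 0, 0 and 0 in place of 1. With the replicate block 5 pathway genes were called lower. Over the fits that left out 1 array each, members called higher numbered 0 to 4, pathway genes called higher 2 to 5 and lower 0 to 4. Over all probe sets the higher calls numbered 197 and changed to 69 without the filter, 57 without trend, 312 with the replicate block, 127 without _x_at, _s_at and _a_at probe sets and 31 to 255 with 1 array left out. The lower calls numbered 292 and changed to 119, 116 and 461 under the first 3 of these, 191 with median centring and 86 to 275 with 1 array left out. Leaving out an array leaves fewer arrays and dropping the filter adds probe sets to the adjustment; otherwise the cause was not tested. With 1 array left out, Fcgr2b 1435476_a_at ran from -0.029 (without wild-type array 8) to 0.45, and Syk 1425797_a_at from -0.14 (without wild-type array 5) to 0.40, and neither passed. No member called lower appeared under any of the 16 alternatives. The replicate block changed no call among members. The ratio differences kept their sign, at 0.59 to 1.34 for Fcgr3 to Fcgr2b and 0.91 to 2.25 for Fcer1g to Tyrobp, whose lowest value, with dim Fcer1g at the control level, comes from a setting chosen after seeing the data. No alternative for Fcgr3 to Fcgr2b used another Fcgr2b probe set, and 1435477_s_at rose by more (1.25) than Fcgr3 (1.09). Dim signals, as of wild-type Fcer1g, have only a bound.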

Other observations

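The genes whose log2(signal + 16) over the 6 arrays was most like that of a member were named for each member's brightest tested probe set, among 12418 other probe sets with 1 symbol. Pearson's r over 6 arrays that fall into 2 groups is a description only. For Fcer1g it also uses wild-type signals that did not exceed the control level. Lgals1, which encodes the lectin galectin-1, was nearest to Fcer1g with r = 0.999 and rose by 1.41 (limma adjusted p = 0.00306), with means of 10625 ± 30.6 on knockout-labelled and 4165 ± 1523 on wild-type arrays (SD, n = 3 each). The mitochondrial ADP/ATP carriers Slc25a5 (r = 0.997) and Slc25a4 (r = 0.994) came next and stood at 0.47 and 0.51 without passing (adjusted p = 0.136 and 0.0997). Ap3s1, a subunit of the AP-3 adaptor complex of lysosomal sorting, was among the 3 nearest to Fcgr3 (r = 0.992) and rose by 1.39 (adjusted p = 0.00306), beside Gtf2f1 and Akr1a1, which did not pass. The nearest to Tyrobp were Psmc1, Mrpl13 and Hsd3b7 (r = 0.998, 0.998 and 0.996), to Fcgr1 Ddost, Ndufs8 and Hint1 (r = 0.994, 0.993 and 0.993), to Fcgr2b Maf1, Kcnh3 and Fzd2 (r = 0.993, 0.993 and 0.977) and to Syk Tob2, Zfand3 and Vopp1 (r = 0.985, 0.981 and 0.980), and none of these 12 passed.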
